A study of Mus musculus with 12 samples.

Results

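Metallothioneins and zinc transporters are described here through 5 genes, Mt1, Mt2, Slc30a1, Slc30a10 and Slc39a14, found by their symbols among 56107 genes in a table of liver transcript levels. Each symbol occurred in the table only on 1 row, and all 5 genes passed the filter on low levels that 11980 genes passed. The livers came from 12 mice, 3 in each of 4 groups, and poly(A) RNA of each liver was sequenced as a library of its own. Mice labelled Lix1l knockout (KO) and wild-type (WT) littermates entered the experiment at 6 weeks of age and received a high-fat diet (HFD) or a low-fat diet (LFD) for 12 weeks. The 4 groups were KO HFD (mice 1, 5 and 6), WT HFD (mice 1, 2 and 6), KO LFD (mice 2, 4 and 5) and WT LFD (mice 4, 7 and 8). The study asked how LIX1L bears on steatohepatitis, the inflammatory form of fatty liver disease. The sources used here do not say how the knockout was made.

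Metallothioneins are small cysteine-rich proteins that bind zinc, copper and cadmium. Their genes are induced by zinc through the metal-responsive transcription factor MTF1, and in liver also by glucocorticoids and by interleukin-6 signalling, which makes hepatic metallothionein part of the acute phase response. ZIP proteins (Slc39 genes) carry zinc and related metals into the cytosol, and ZnT proteins (Slc30 genes) carry them out of it into vesicles or across the plasma membrane. ZnT1, the product of Slc30a1, is the zinc exporter of the plasma membrane and an MTF1 target. ZIP14, the product of Slc39a14, takes up zinc, iron and manganese and is induced in liver during inflammation. ZnT10, the product of Slc30a10, mainly exports manganese from hepatocytes into bile.

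Mt1 (ENSMUSG00000031765) and Mt2 (ENSMUSG00000031762) are neighbours on the plus strand of chromosome 8 in build GRCm38, at positions 94179082 to 94180327 and 94172664 to 94173568, with 5513 bases between them. Slc30a1 (ENSMUSG00000037434) lies on the plus strand of chromosome 1 at 191906767 to 191913247. Slc30a10 (ENSMUSG00000026614) lies on the plus strand of chromosome 1 at 185454848 to 185468762. Slc39a14 (ENSMUSG00000022094) lies on the minus strand of chromosome 14 at 70303469 to 70351425.

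The promoter tables of RefSeq (GRCm38.p6) hold 4 of the 5 genes, all but Slc39a14. The 250 bases before the RefSeq start are shown for the pair of metallothionein genes, whose levels moved together, and for Slc30a1, the gene with the firmest change between groups. Capitals mark matches to the core of the metal response element, the DNA motif to which MTF1 binds, searched as TGCACNC and TGCGCNC on both strands.
Mt1 (chr8:94178839-94179088, plus strand): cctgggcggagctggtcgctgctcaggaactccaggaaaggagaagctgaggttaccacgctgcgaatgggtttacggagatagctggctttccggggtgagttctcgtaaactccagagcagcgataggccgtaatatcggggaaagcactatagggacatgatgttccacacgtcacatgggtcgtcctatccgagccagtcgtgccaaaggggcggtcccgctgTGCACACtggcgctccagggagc
Mt2 (chr8:94172368-94172617, plus strand): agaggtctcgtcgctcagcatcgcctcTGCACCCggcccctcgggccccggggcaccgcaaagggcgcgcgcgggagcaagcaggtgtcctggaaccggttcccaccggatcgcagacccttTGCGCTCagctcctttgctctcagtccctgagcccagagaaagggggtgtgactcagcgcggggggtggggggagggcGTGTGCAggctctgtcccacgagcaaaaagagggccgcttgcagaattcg
Slc30a1 (chr1:191906531-191906780, plus strand): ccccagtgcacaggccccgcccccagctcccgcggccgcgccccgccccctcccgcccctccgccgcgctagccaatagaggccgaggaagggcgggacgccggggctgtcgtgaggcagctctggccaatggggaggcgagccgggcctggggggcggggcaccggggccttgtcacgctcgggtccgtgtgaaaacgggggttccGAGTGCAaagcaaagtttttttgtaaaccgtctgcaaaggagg
Mt1 held 1 match, TGCACNC on the plus strand at -23 to -17 from the start. Mt2 held 3 matches, TGCACNC at -223 on the plus strand and at -50 on the minus strand, and TGCGCNC at -128 on the plus strand. Slc30a1 held 1 match, TGCACNC on the minus strand at -43. The window of Slc30a10 (chr1:185454598-185454847) held 3 matches to TGCGCNC, at -233, -232 and -73, of which the first pair overlap. Among 32851 promoters of the same length, 21.4% held at least 1 match and 1.26% held at least 3. TGCACNC was found in 10.4% of these promoters and TGCGCNC in 12.5%, each with or without the other. Neither TTCNNNGAA, a STAT-type motif present in 7.02% of promoters, nor TGTTCT, a glucocorticoid receptor motif present in 16.1%, was matched in the 4 windows. GENCODE places further starts of Mt1, Mt2 and Slc30a1 downstream of these windows, so the bases just before those starts were not all searched.

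The values are TPM (transcript abundance, reads per gene scaled for gene length and to a fixed total per library). This scaling is meant to make levels comparable between genes. The annotated transcripts are short for Mt2 (388 to 511 bases) and Mt1 (549 to 1085 bases). The longest are 5244 bases for Slc30a1, 5836 for Slc30a10 and 5117 for Slc39a14. How well the scaling holds across these lengths was not tested. Depth per library is unknown from TPM. Between 10265 and 11353 genes reached 1 TPM per library. Lix1l, the gene named as deleted, was at 0.15 to 1.92 TPM in KO HFD livers, 0.9 to 1.73 TPM in WT HFD livers, 0.21 to 0.78 TPM in KO LFD livers, and 0.58 to 1.08 TPM in WT LFD livers. Its levels overlapped between the genotypes on both diets, with log2 differences of -0.17 ± 0.31 (SE; limma adjusted p = 0.695) on HFD and -0.35 ± 0.31 (adjusted p = 0.716) on LFD. The level of a whole gene does not check a deletion whose extent is not known, so KO and WT below are the genotypes in the labels. The KO HFD livers stood apart from the rest over the whole table. Of the 11980 genes tested, 37.0% passed an adjusted p of 0.05 between KO HFD and WT HFD (11.2% higher and 25.8% lower), 23.8% between KO HFD and KO LFD, 0.159% between KO LFD and WT LFD (0.0918% higher and 0.0668% lower), and 0.309% between WT HFD and WT LFD (0.250% higher). Between KO HFD and KO LFD 6.73% were called higher, and averaged over genotypes HFD against LFD called 2.63% higher and 3.79% lower. The balance of directions depends on the scaling, since 30.4% of the calls between KO HFD and WT HFD were higher, against 45.2% under median-ratio scaling and 44.2% under quantile normalization, and the median log2 change over all genes was -0.25, against -0.06 and -0.08. The 3 livers of one group lay wholly apart from the 3 of the other for 53.4% of genes between KO HFD and WT HFD (37.3% lower), 38.6% between KO HFD and KO LFD (27.7% lower), 24.0% between WT HFD and WT LFD (15.2% higher) and 17.6% between KO LFD and WT LFD (6.35% lower). In 6.50% of genes the KO HFD livers lay above all 9 others. Mitochondrially encoded transcripts took 22.6%, 12.6% and 10.9% of all TPM in KO HFD mice 1, 5 and 6, against 7.53% to 11.6% in the other 9 livers.

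Mt1 and Mt2 varied widely between mice of the same group, least so among KO HFD livers. Mt1 was at 99.82, 177.5 and 81.24 TPM in KO HFD mice 1, 5 and 6, against 226.1, 429.05 and 84.64 TPM in WT HFD mice 1, 2 and 6. On LFD it was at 46.13, 350.65 and 4559.27 TPM in KO mice 2, 4 and 5, against 36.43, 519.01 and 410.85 TPM in WT mice 4, 7 and 8. All 4 groups overlapped, and KO LFD mouse 5 stood far above the next highest liver, WT LFD mouse 7. The group means were 119.5 ± 51.1 TPM in KO HFD, 246.6 ± 173 in WT HFD, 1652 ± 2520 in KO LFD, with 322.1 ± 253 in WT LFD (SD, n = 3 each).

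Mt2 followed the same livers. It was at 14.54, 42.17 and 16.04 TPM in KO HFD mice 1, 5 and 6, against 98.33, 198.45 and 30.51 TPM in WT HFD mice 1, 2 and 6. On LFD it was at 20.18, 187.05 and 2710.21 TPM in KO mice 2, 4 and 5, against 12.87, 331.21 and 154.5 TPM in WT mice 4, 7 and 8. The lowest level of both genes was in WT LFD mouse 4 and the highest in KO LFD mouse 5, a 125-fold range for Mt1 and a 211-fold range for Mt2. Mt1 was the 34th most abundant gene of its library in KO LFD mouse 5 and the 1854th in WT LFD mouse 4. Mt2 was the 58th and the 3870th in the same livers. The residual SD within groups was 2.07 for Mt1 and 2.26 for Mt2 on the log2(TPM + 1) scale, against a median of 0.296 over all genes tested, and only 0.476% and 0.367% of genes had a larger one.

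With this spread, no comparison of Mt1 or Mt2 passed the test. The log2 change of Mt1 in KO HFD against WT HFD was -0.83 (95% interval -3.90 to 2.24; limma adjusted p = 0.659), and that of Mt2 was -1.92 (-5.28 to 1.44; adjusted p = 0.34). In KO LFD against WT LFD the log2 change of Mt1 was 1.08 (-1.99 to 4.15; adjusted p = 0.822), and that of Mt2 was 1.30 (-2.06 to 4.67; adjusted p = 0.8). These LFD values rest on KO LFD mouse 5 and on WT LFD mouse 4. Without KO LFD mouse 5 they were -0.64 for Mt1 and -0.50 for Mt2, and without WT LFD mouse 4 they were -0.13 and -0.04. In KO HFD against KO LFD the log2 change was -1.89 for Mt1 (adjusted p = 0.337) and -3.29 for Mt2 (-6.66 to 0.07; adjusted p = 0.134). With each library left out in turn, the Mt1 value ran from -3.47 to -0.18 and the Mt2 value from -4.99 to -1.49. The ends of both ranges came from KO LFD mice 2 and 5. Without KO LFD mouse 2, Mt2 passed the test (-4.99, adjusted p = 0.0338) and Mt1 did not (-3.47, adjusted p = 0.0742). Without KO LFD mouse 5 neither passed (-1.49, adjusted p = 0.447 for Mt2, and -0.18, adjusted p = 0.93 for Mt1). The intervals admit changes of many-fold in either direction, so the tests do not show that the groups were alike. The other genes of the family were near or at 0, with Mt3, the metallothionein of brain, at most 0.34 TPM and Mt4, that of squamous epithelia, listed at 0 in every library.

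**Figure D1:**
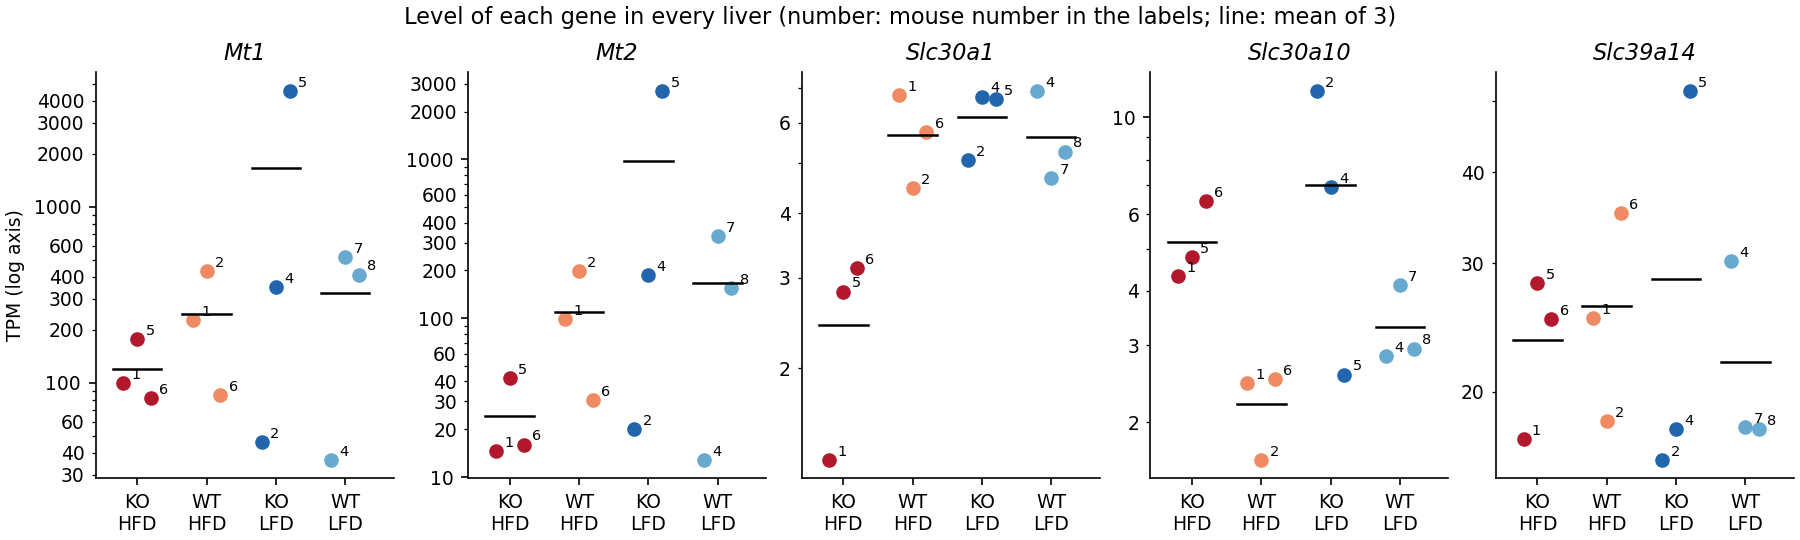
Level in TPM (log axis) of the 5 genes in each of the 12 livers, with KO HFD, WT HFD, KO LFD and WT LFD from left to right, mouse numbers beside the points and a line at the mean of 3. Mt1 and Mt2 spread over more than 100-fold with all groups overlapping, the 3 KO HFD livers have the lowest Slc30a1 (1.33 to 3.13 TPM), and Slc30a10 is lowest in WT HFD livers (1.64 to 2.51 TPM).

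The levels of Mt1 and Mt2 rose and fell together from liver to liver. Over the 12 livers, Pearson's r of log2(TPM + 1) was 0.973 (permutation p = 1e-05, the smallest that 100000 resamples can give; 1e-04 after Benjamini-Hochberg adjustment over the 10 pairs of members) and Spearman's rho was 0.944 (p = 5e-05, adjusted 5e-04). It was 0.942 without KO LFD mouse 5 and WT LFD mouse 4, the livers farthest from the median of Mt1, and 0.994 after subtracting group means. None of the other 9 pairs of members passed, with adjusted p of at least 0.463 for r and at least 0.265 for rho.

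The share of Mt2 relative to Mt1 was lowest in the KO HFD livers. The ratio of Mt2 to Mt1 TPM within a library was 0.146, 0.238 and 0.197 in KO HFD mice 1, 5 and 6, against 0.435, 0.463 and 0.361 in WT HFD mice 1, 2 and 6. It was 0.438, 0.533 and 0.594 in KO LFD mice 2, 4 and 5, against 0.353, 0.638 and 0.376 in WT LFD mice 4, 7 and 8. The 3 KO HFD ratios lay below all 9 others, while the other 3 groups overlapped. For levels of single genes, the KO HFD livers lay below all 9 others in 18.0% of genes tested. No such share was computed for ratios between genes. The means were 0.194 ± 0.0461 in KO HFD, 0.419 ± 0.0528 in WT HFD, 0.522 ± 0.0791 in KO LFD, with 0.456 ± 0.158 in WT LFD (SD, n = 3 each).

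On the log2 scale with a pseudocount of 1, the ratio differed by -1.09 between KO HFD and WT HFD and by -1.40 between KO HFD and KO LFD, each with an exact two-sided permutation p of 0.1, the lowest that 3 against 3 allows. It differed by 0.23 between KO LFD and WT LFD (exact p = 0.5) and by -0.09 between WT HFD and WT LFD (exact p = 0.8). Averaged over genotypes, HFD minus LFD was -0.74 (exact p = 0.04 permuting within genotypes), and averaged over diets, KO minus WT was -0.43 (exact p = 0.145). After Benjamini-Hochberg adjustment over these 6 tests the lowest p was 0.2, so none passed. Mt2 is the less certain of the pair, because 749 of its bases also lie under Gm45774, an antisense gene at 0 to 5.52 TPM, and 58.1% of its 31-base words occur in another gene's transcripts. The sources used here do not say whether counting used strand, so reads of Mt2 and of Gm45774 cannot be told apart. Mt1 shared none of its 31-base words with another gene.

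**Figure D2:**
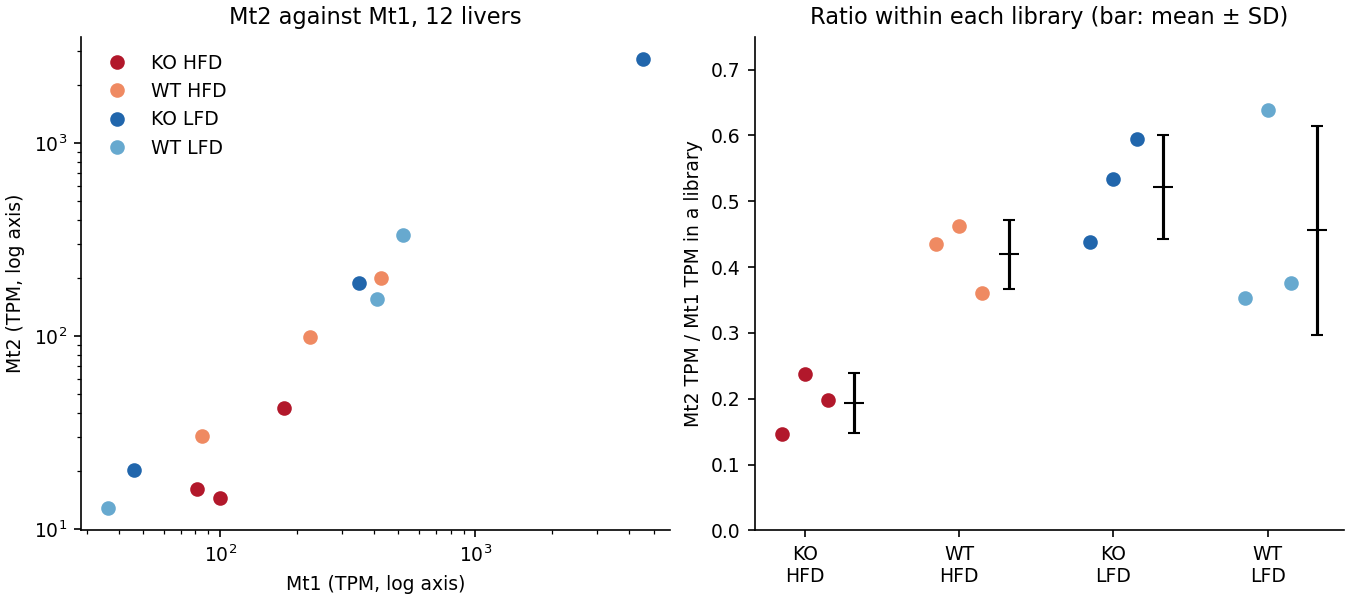
Left, Mt2 against Mt1 in TPM (both log axes) in 12 livers, coloured by group. Right, the ratio of Mt2 to Mt1 TPM within each library, with bars at the mean ± SD of 3: the KO HFD ratios (0.146 to 0.238) lie below those of the other 9 livers (0.353 to 0.638). How often ratios between other genes do so was not computed.

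Slc30a1, which encodes the zinc exporter ZnT1, was lower in KO HFD livers than in WT HFD livers. It was at 1.33, 2.82 and 3.13 TPM in KO HFD mice 1, 5 and 6, against 6.78, 4.47 and 5.76 TPM in WT HFD mice 1, 2 and 6. In KO LFD mice 2, 4 and 5 it was at 5.08, 6.74 and 6.66 TPM, against 6.92, 4.69 and 5.27 TPM in WT LFD mice 4, 7 and 8. Each KO HFD liver lay below each of the 9 other livers, as held for 18.0% of genes tested, and the other 3 groups overlapped. The means were 2.427 ± 0.962 TPM in KO HFD, 5.67 ± 1.16 in WT HFD, 6.16 ± 0.936 in KO LFD, with 5.627 ± 1.16 in WT LFD (SD, n = 3 each).

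The log2 change of Slc30a1 in KO HFD against WT HFD was -0.99 ± 0.24 (SE; 95% interval -1.52 to -0.46; limma adjusted p = 0.00987), with a mean in WT HFD livers 2.337-fold that in KO HFD livers. It was the only member of the 5 to pass in this contrast, where 37.0% of all genes tested passed and 25.8% were lower. The exact permutation p was 0.1, the lowest that 3 against 3 allows. The call held under all 23 alternative settings, with adjusted p of 0.000126 to 0.0477. Without KO HFD mouse 1, the liver with the largest mitochondrial share, the log2 change was -0.73 (adjusted p = 0.0272). In KO HFD against KO LFD, Slc30a1 fell by 1.10 on the log2 scale (SE 0.24; adjusted p = 0.0105), where 17.0% of genes tested were called lower. That call was lost when only these 2 groups were fitted (adjusted p = 0.0556). Slc30a1 shares 761 bases with the antisense gene 1700034H15Rik, which was at 0 to 0.08 TPM.

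No change of Slc30a1 passed between KO LFD and WT LFD (log2 change 0.12, 95% interval -0.41 to 0.64; adjusted p = 0.897) or between WT HFD and WT LFD (0.01, -0.52 to 0.54; adjusted p = 0.995). The difference between the genotype effects on the diets, the interaction, was -1.11 ± 0.34 on the log2 scale and did not pass (adjusted p = 0.0588), where 9.66% of genes tested passed (2.54% higher and 7.12% lower). The genotype effect on HFD is therefore not shown to differ from that on LFD. Over the alternative settings the adjusted p of the interaction ran from 0.00582 to 0.146, and 4 of 22 settings passed.

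Cell type markers and signs of RNA state also differed between KO HFD and WT HFD livers. Between KO HFD and WT HFD the hepatocyte and endothelial sums were apart, where 53.4% of single genes tested were. The macrophage sums overlapped there (53.28 TPM in KO HFD mouse 1, 55.91 TPM in WT HFD mouse 1). Between KO LFD and WT LFD the hepatocyte, endothelial and macrophage sums were all apart, where 17.6% of single genes tested were. The summed level of 6 hepatocyte markers was 39920 to 53540 TPM in KO HFD livers and 68320 to 77360 TPM in WT HFD livers, with 4 of the 6 called lower. Alb was the largest part of this sum, with means of 21180 TPM in KO HFD and 41240 TPM in WT HFD livers. The mean of Apoa1 went the other way (13790 against 12530 TPM). The summed level of 8 endothelial markers was 97.2 to 110.4 TPM in KO HFD livers and 36.17 to 47.45 TPM in WT HFD livers, with 7 of 8 called higher. For 8 Kupffer cell and macrophage markers it was 53.28 to 330.9 TPM in KO HFD livers and 18.24 to 55.91 TPM in WT HFD livers, with 5 of 8 called higher. The nuclear RNAs Malat1 and Neat1 summed to 99.49 to 322.1 TPM in KO HFD livers and 14.48 to 30.97 TPM in WT HFD livers. Of 7 stellate cell and matrix genes tested 3 were called higher, and of 3 cholangiocyte genes tested 2 were called lower. Over all genes tested, this contrast called 11.2% higher and 25.8% lower. On LFD, where Slc30a1 did not pass, hepatocyte markers summed to 44760 to 50970 TPM in KO and 62720 to 87630 TPM in WT livers. Alb was again the largest part, with means of 19980 TPM in KO LFD and 39940 TPM in WT LFD livers. The mean of Ttr went the other way (5875 against 4852 TPM), and that of Serpina1a differed little (4418 against 4796 TPM). Endothelial markers summed to 88.3 to 103.7 TPM in KO LFD livers against 51.39 to 59.35 TPM in WT LFD livers. Macrophage markers summed to 111.4 to 356.1 TPM in KO LFD and 48.25 to 85.14 TPM in WT LFD livers. The sums of Malat1 and Neat1 overlapped on LFD (35.11 to 69.3 against 23.84 to 43.6 TPM). The part of these markers and RNAs in the change of Slc30a1 was not tested. In these bulk samples, fewer cells of a type and less RNA per cell cannot be told apart.

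Slc30a10, which encodes the manganese exporter ZnT10, was higher in livers labelled KO when both diets were averaged. It was at 4.33, 4.78 and 6.42 TPM in KO HFD mice 1, 5 and 6, against 2.46, 1.64 and 2.51 TPM in WT HFD mice 1, 2 and 6. In KO LFD mice 2, 4 and 5 it was at 11.51, 6.91 and 2.57 TPM, against 2.84, 4.13 and 2.95 TPM in WT LFD mice 4, 7 and 8. The 3 KO HFD livers lay above all 6 WT livers, as held for 10.8% of genes tested, whereas the LFD genotypes overlapped because KO LFD mouse 5 was below every WT LFD liver. The means were 5.177 ± 1.1 TPM in KO HFD, 2.203 ± 0.489 in WT HFD, 6.997 ± 4.47 in KO LFD, with 3.307 ± 0.715 in WT LFD (SD, n = 3 each).

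Averaged over diets, the log2 change of Slc30a10 in KO against WT was 0.84 ± 0.26 (SE; 95% interval 0.28 to 1.40; limma adjusted p = 0.0385), where 21.5% of genes tested passed and 9.13% were higher. The exact two-sided permutation p within diets was 0.02. The call held in 10 of 22 alternative settings, with adjusted p of 0.00485 to 0.0894. It was lost with no filter on low levels (adjusted p = 0.0894), with the mouse number as a replicate block (adjusted p = 0.0571) and without any of KO HFD mice 1, 5 and 6, WT HFD mice 1, 2 and 6, KO LFD mice 2 and 4 or WT LFD mice 4 and 8 (adjusted p = 0.052 to 0.0831). On HFD alone the change was 0.94 ± 0.36 (95% interval 0.15 to 1.74; adjusted p = 0.0597; exact permutation p = 0.1), with a mean in KO HFD livers 2.35-fold that in WT HFD livers. That change passed in 8 of 23 settings, among them both rescalings to a common centre, with a log2 change of 1.15 under median-ratio scaling (adjusted p = 0.0287) and 1.12 under quantile normalization (adjusted p = 0.0357). On LFD alone it was 0.73 ± 0.36 (-0.07 to 1.52; adjusted p = 0.441), and without KO LFD mouse 5 it was 1.22 (adjusted p = 0.0875). The interaction was 0.22 ± 0.51 (adjusted p = 0.797).

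Levels of Slc30a10 in WT HFD livers lay below those in WT LFD livers without overlap, as did those of 8.81% of genes tested. The log2 change of -0.43 did not pass (95% interval -1.22 to 0.37; adjusted p = 0.691). The endothelial and macrophage markers described above were also higher in KO livers averaged over diets, 8 of 8 called in each list. Of all genes tested 9.13% were called higher in that contrast. Within KO LFD, mouse 5, with the lowest Slc30a10, had the highest macrophage sum (356.1 TPM) and the lowest endothelial sum (88.3 TPM). Mouse 2, with the highest Slc30a10, had the lowest macrophage sum (111.4 TPM) and the highest sum of stellate cell and matrix markers (113.5 TPM). The part of these markers in the change of Slc30a10 was not tested. Slc30a10 shares 721 bases with the long noncoding gene Gm2061, which was at 0.06 to 0.89 TPM, and their reads in those bases cannot be told apart either.

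**Figure D3:**
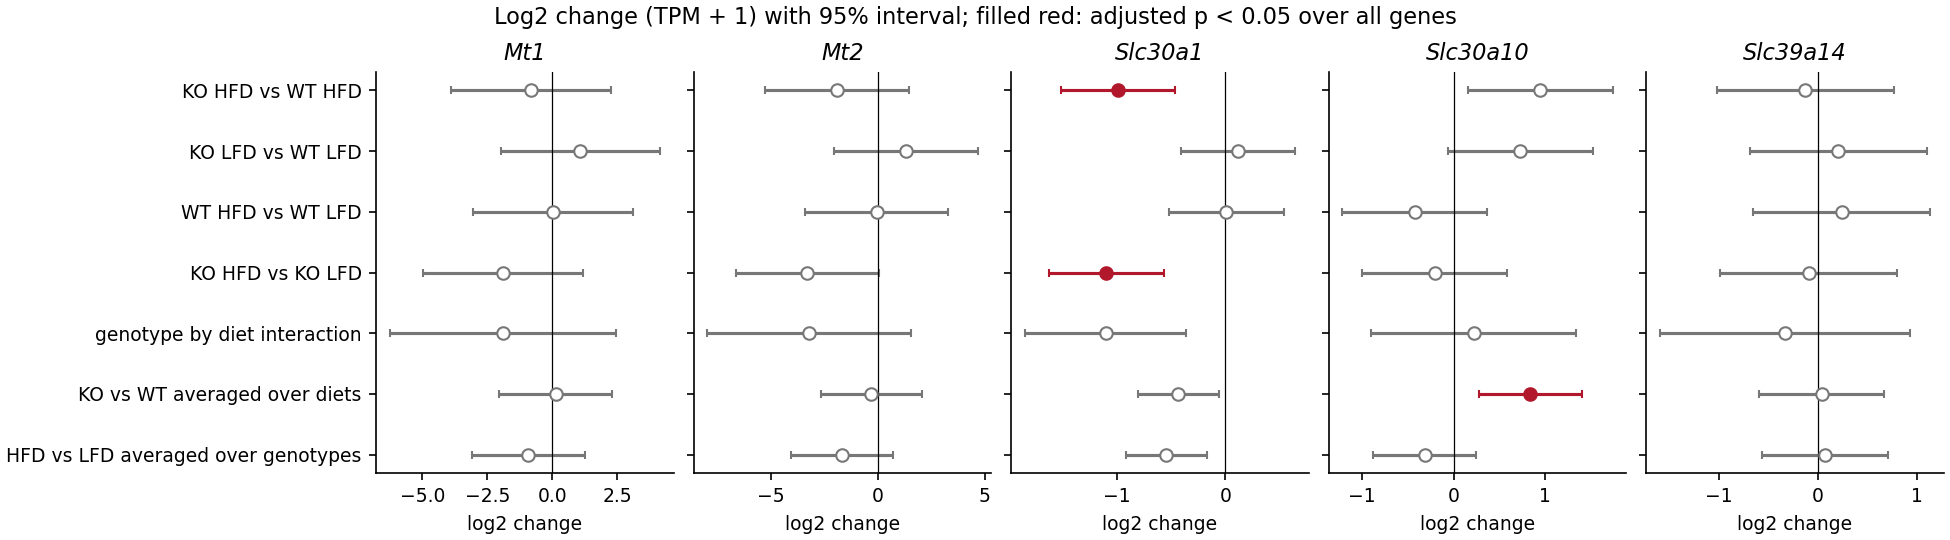
Log2 change of TPM + 1 for the 5 genes in 7 contrasts, with 95% intervals; filled red points have a limma adjusted p under 0.05 over all genes tested. Slc30a1 is called lower in KO HFD against WT HFD (-0.99) and against KO LFD (-1.10), and Slc30a10 higher in KO against WT averaged over diets (0.84), while the intervals of Mt1 and Mt2 span several log2 units.

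Slc39a14, which encodes the importer ZIP14, did not separate any groups. It was at 17.22, 28.2 and 25.13 TPM in KO HFD mice 1, 5 and 6, against 25.21, 18.2 and 35.11 TPM in WT HFD mice 1, 2 and 6. On LFD it was at 16.13, 17.75 and 51.71 TPM in KO mice 2, 4 and 5, against 30.21, 17.86 and 17.79 TPM in WT mice 4, 7 and 8. All groups overlapped, and the highest of the 12 levels was in KO LFD mouse 5, the same liver as for Mt1 and Mt2. The log2 change was -0.13 in KO HFD against WT HFD (95% interval -1.03 to 0.77; limma adjusted p = 0.823) and 0.20 in KO LFD against WT LFD (-0.69 to 1.10; adjusted p = 0.893). The sign of the HFD value turned under median-ratio scaling (0.12) and quantile normalization (0.18), and that of the LFD value turned without KO LFD mouse 5 (-0.31).

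The order of mean levels differed between the genes. Both metallothioneins ran from KO LFD through WT LFD and WT HFD to KO HFD, with each neighbour overlapping the next. Slc30a1 ran from KO LFD through WT HFD and WT LFD to KO HFD, and only the last step had no overlap. Slc30a10 ran from KO LFD through KO HFD and WT LFD to WT HFD, where the KO LFD and KO HFD ranges overlapped and the next steps did not. Slc39a14 ran from KO LFD through WT HFD and KO HFD to WT LFD, all overlapping. For Mt1, Mt2 and Slc39a14 the KO LFD mean includes mouse 5, the highest liver for each. By medians KO LFD was the lowest group for Slc39a14 (17.75 TPM, against 17.86 TPM in WT LFD). Its Mt1 median was below that of WT LFD (350.65 against 410.85 TPM), and its Mt2 median above (187.05 against 154.5 TPM). The mean level averaged over 12 livers was 585.1 TPM for Mt1, 318 TPM for Mt2, 25.04 TPM for Slc39a14, 4.971 TPM for Slc30a1 and 4.421 TPM for Slc30a10.

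KO LFD mouse 5 had the highest level of both metallothioneins and of other genes. Its library held the highest of the 12 values for 12.0% of genes tested, for both metallothioneins and for 4 of 10 ZIP genes tested (Slc39a1, Slc39a3, Slc39a11 and Slc39a14). It also held the highest value for 7 of 10 genes of the interleukin-6 receptor, STAT3 and acute phase list, among them Stat3 (29 TPM), the serum amyloid genes Saa1 (39767.6 TPM) and Saa2 (43735.98 TPM), Lcn2 (2569.69 TPM) and Hp (20729.83 TPM). Of 10 genes for the glucocorticoid receptor and its targets, Fkbp5 (35.07 TPM) and Per1 (7.95 TPM) were highest there. The other KO LFD livers also had high serum amyloid levels, with Saa1 at 10533.08 and 13158.38 TPM in mice 2 and 4 against 39.34 to 136.77 TPM in the 3 WT LFD livers. Saa1 and Saa2 were 2 of the 19 genes called between KO LFD and WT LFD (log2 change 7.77 and 8.87, limma adjusted p = 0.00376 each), and are close paralogs whose reads may be split between them. With only these 2 groups fitted, limma called none of the genes (1400 had an unadjusted p under 0.05), with an adjusted p of 0.106 for Saa1 and 0.161 for Saa2, and both were called in the other 22 settings. The summed level of 5 neutrophil markers was 5.09, 74.61 and 30.2 TPM in KO LFD mice 2, 4 and 5, against 1.52 to 4.08 TPM in WT LFD livers, so its peak was in mouse 4. Of the Kupffer cell and macrophage markers, 5 of 8 were highest in KO LFD mouse 5. The part of these in the metallothionein levels was not tested.

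**Figure D4:**
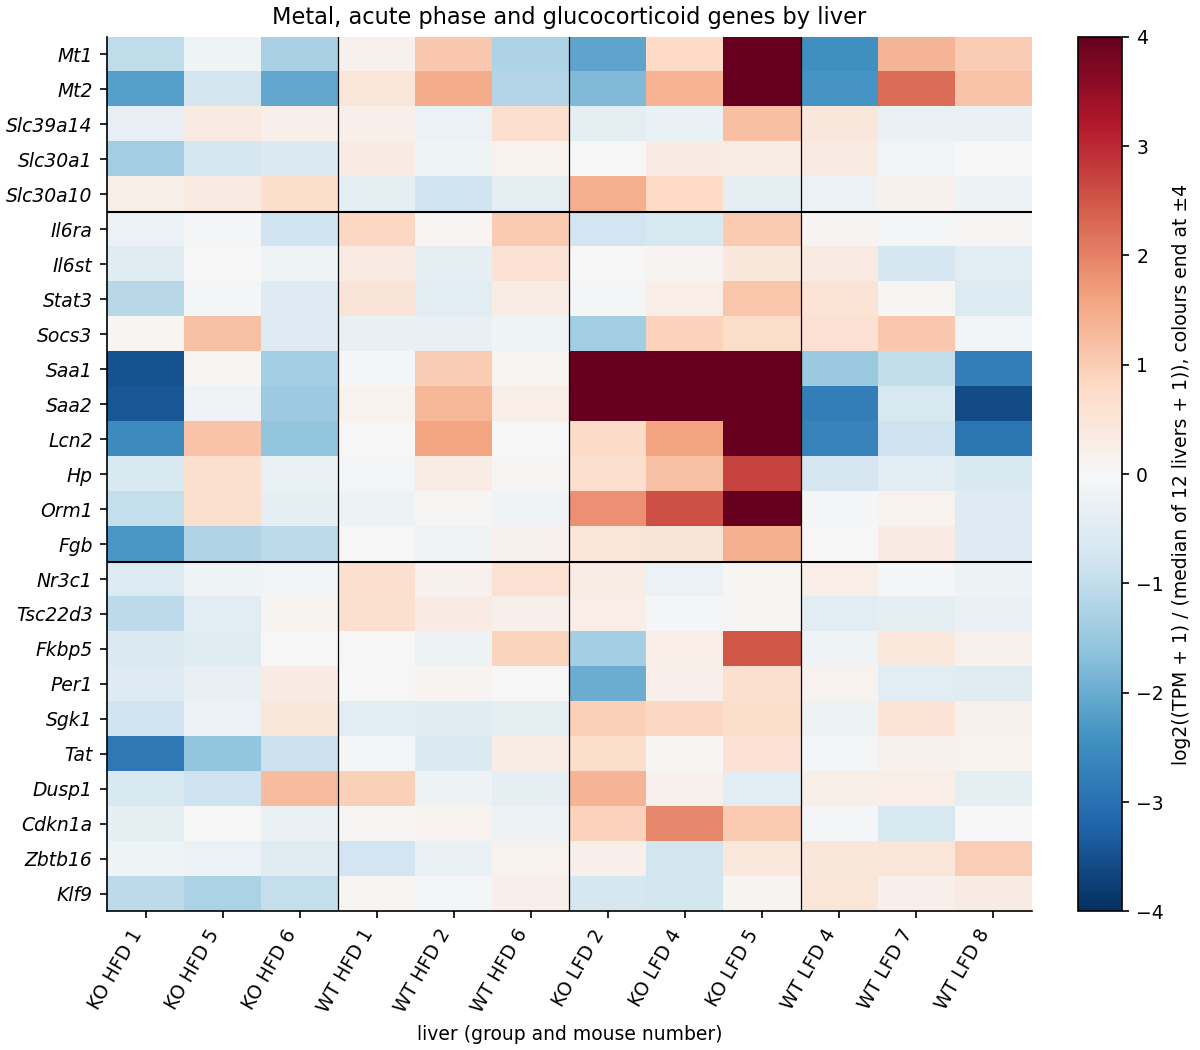
Level of each gene in each liver as the log2 ratio of TPM + 1 to that of the median liver (colours end at 4 in either direction), for the 5 genes, the interleukin-6 and acute phase list and the glucocorticoid list. The column of KO LFD mouse 5 is high for Mt1, Mt2, Slc39a14, Saa1, Saa2, Lcn2 and Fkbp5, and Saa1 and Saa2 are high in all 3 KO LFD livers.

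Of 10 ZnT genes, 7 were tested and 2 were called lower in KO HFD against WT HFD, Slc30a1 and Slc30a4, where 25.8% of all genes tested were called lower, with a median log2 change over the 7 of -0.09 against -0.25 over all genes. Slc30a4, which moves zinc into vesicles, was at 0.82, 0.79 and 0.93 TPM in KO HFD mice 1, 5 and 6, against 1.78, 1.49 and 1.46 TPM in WT HFD mice 1, 2 and 6 (log2 change -0.48, limma adjusted p = 0.0293). It was not called under median-ratio scaling, and all 3 rescalings tried called Slc30a10 higher in the same contrast. Of the ZnT genes that were not called, Slc30a5, a carrier of the early secretory pathway, was at 15.75 to 23.61 TPM in KO HFD livers and 15.79 to 20.04 TPM in WT HFD livers.

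Of 14 ZIP genes, 10 were tested and 5 were called lower in KO HFD against WT HFD, none higher, with a median log2 change over the 10 of -0.61. Over all genes tested 25.8% were called lower and 11.2% higher, with a median of -0.25, and without KO HFD mouse 1 the number of ZIP genes called lower was 3. Among genes that reached 5 TPM in 3 libraries the median was -0.395. Slc39a4, known as the zinc importer of intestine, had the largest change, at 2.07, 3.06 and 2.95 TPM in KO HFD mice 1, 5 and 6, against 7.37, 11.4 and 13.48 TPM in WT HFD mice 1, 2 and 6 (log2 change -1.64, limma adjusted p = 0.0014). Slc39a8, which encodes ZIP8, an importer of zinc and manganese, was at 1.4, 2.24 and 3.42 TPM in KO HFD livers, against 6.45, 6.17 and 6.86 TPM in WT HFD livers (-1.20, adjusted p = 0.00244). Both were also called lower in KO against WT averaged over diets (-1.07 and -0.74). The other 3 called lower were Slc39a1 (-1.04, adjusted p = 0.0135), Slc39a9 (-0.82, adjusted p = 0.0183) and Slc39a11 (-1.25, adjusted p = 0.0138). Slc39a5, an importer of the basolateral membrane, was at 3.19 to 4.48 TPM in KO HFD livers and 1.53 to 2.77 TPM in WT HFD livers and did not pass (0.65, adjusted p = 0.058), but was called higher under each of 3 rescalings. The 5 genes called lower stayed so under these rescalings.

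The same 2 ZnT genes and 4 ZIP genes, Slc39a1, Slc39a4, Slc39a8 and Slc39a11, were called lower in KO HFD against KO LFD, where 17.0% of all genes tested were called lower. This contrast shares the KO HFD livers with the one before, so the lists are not independent. Between KO LFD and WT LFD limma called none of the 17 transporter genes tested, where it called 0.159% of all genes. With so low a share, the lack of calls says little about the transporters. The median log2 change was 0.11 over ZnT and 0.19 over ZIP genes, against 0.07 over all genes. An unadjusted limma p under 0.05 was found for 12.7% of all genes. Mtf1, which encodes the zinc-sensing factor, was at 1.99 to 5.39 TPM over the 12 livers, and its log2 change was -0.03 in KO HFD against WT HFD (adjusted p = 0.942).

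**Figure D5:**
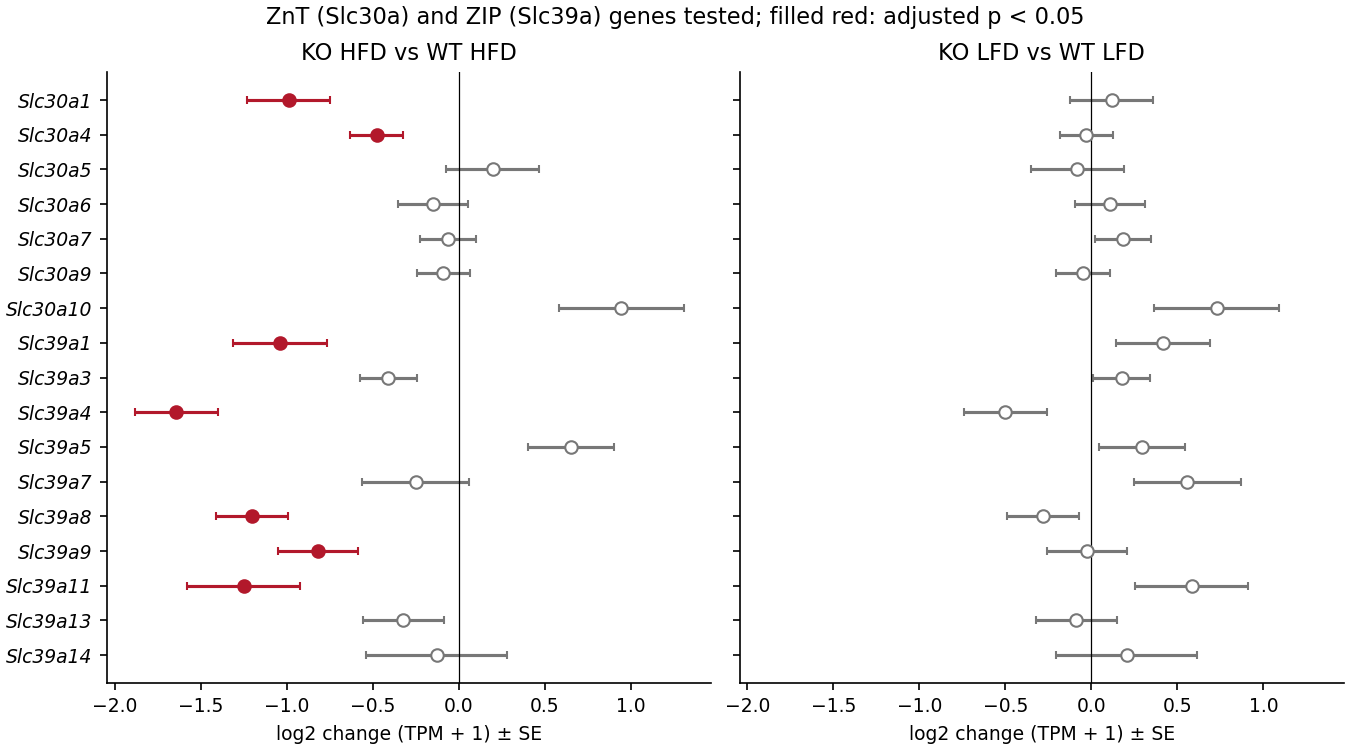
Log2 change of TPM + 1 with SE for the 17 ZnT (Slc30a) and ZIP (Slc39a) genes tested, in KO HFD against WT HFD (left) and KO LFD against WT LFD (right); filled red points have a limma adjusted p under 0.05 over all genes. On HFD 7 genes are called lower, from -0.48 for Slc30a4 to -1.64 for Slc39a4, where 25.8% of all genes are. On LFD none is called, where 0.159% of all genes are.

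For hepatic manganese, the list held the importers Slc39a8 and Slc39a14, the exporter Slc30a10, the divalent metal transporter Slc11a2, the Golgi pump Atp2c1 and the iron exporter Slc40a1, all 6 of them tested. Slc39a8 and Atp2c1 (log2 change -0.72, limma adjusted p = 0.0159) were called lower in KO HFD against WT HFD, and none higher, where 25.8% of all genes tested were called lower. In KO against WT averaged over diets, Slc30a10 was called higher and Slc39a8 lower. Within libraries, Slc39a14 exceeded Slc39a8 by 12.3-, 12.6- and 7.35-fold in KO HFD mice 1, 5 and 6, against 3.91-, 2.95- and 5.12-fold in WT HFD mice 1, 2 and 6, without overlap. It was 2.3-, 3.37- and 8.42-fold in KO LFD mice 2, 4 and 5, against 4.09-, 2.16- and 2.43-fold in WT LFD mice 4, 7 and 8, so KO LFD mouse 5 lay within the KO HFD range. No share over all pairs of genes was computed for this ratio.

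The genes whose levels ran most like each member over the 12 livers were named by Pearson's r of log2(TPM + 1), as a description, and they share the libraries. After Mt2, those nearest to Mt1 were Isca2 (r = 0.897), Adh7 (0.863), Vwa3b (0.861) and Cd63 (0.845). After Mt1, those nearest to Mt2 were Eif4ebp1 (0.9), Isca2 (0.869), Agt (0.856) and Map1lc3b (0.853). Slc30a1 ran most like Wsb2 (0.986), Pon2 (0.985), Psap, Igsf5 and Rilpl2 (0.982 each). Slc30a10 ran most like Chka and Gng11 (0.944 each), Myl9 (0.943), Alkbh7 (0.924) and Tubb5 (0.908). Slc39a14 ran most like Hspb8 (0.92), Arid4b and Golga4 (0.873 each), Dnajc3 (0.856) and P4hb (0.854).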

How the data were processed

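Poly(A) RNA from 12 mouse livers had been sequenced, a library per liver. The deposited table gives TPM per gene, computed by the authors; the submitters' processing notes name HISAT2, StringTie and build mm10 without versions. Strand use and depth are unknown from the sources at hand. Library columns were matched to samples through titles, the table's HO columns being the knockouts. Columns summed to 999999.6 to 1000000.3 TPM. The 5 members and all lists were chosen with earlier results of these data known.

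The 11980 genes that reached 1 TPM in 3 or more libraries were tested with limma 3.58.1 in R 4.3.3, on log2(TPM + 1) with a mean-variance trend. All 4 groups were fitted together, and p-values were Benjamini-Hochberg adjusted over all genes tested at a threshold of 0.05. A pseudocount of 1 understates changes of low genes. The fit was tested on simulated data in which some genes were changed in KO HFD livers. Against WT HFD it called 37 of 100 genes changed by log2 1 and 80 of 100 changed by log2 2. In that simulation, changes of log2 1 were thus more often missed than called. The simulation changed 100 genes of each size among 11980, whereas 37.0% of genes were called between KO HFD and WT HFD in the data. The Benjamini-Hochberg adjustment depends on how many genes change, so these shares do not carry over to the data. Because TPM keep no read numbers, no count test was run and no counting error can be given. Values of single genes were also compared by exact permutation. The labels give genotype, mouse number and diet, and the label KO mouse 5 occurs on both diets. Libraries were read as separate mice because those diets differ. The p-values measure the spread between these 12 samples.

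Genes named beside the members were those of fixed lists that were called or averaged at least 5 TPM, and the 5 genes most correlated with each member. Coordinates are from GENCODE M21 (GRCm38).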

Additional observations from a re-analysis of the deposited data

Results flagged for a closer look

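The following 15 genes, from the lists around the 5 members, stood out for a different effect of diet in KO and in WT livers, by the test of that difference or by opposite directions without overlap. Values are the log2 effect of HFD against LFD in KO minus that in WT, and for the first 13 the difference itself passed limma's test, as for 9.66% of genes tested. Among zinc importers it was -1.46 for Slc39a1 (adjusted p = 0.0405) and -1.84 for Slc39a11 (adjusted p = 0.0371). Among genes of copper handling it was -1.97 for Cp, the copper-carrying ferroxidase ceruloplasmin, and -1.89 for the metalloreductase Steap3. For Dpys, a zinc enzyme of pyrimidine breakdown, it was -1.89. Among glucocorticoid targets it was -1.27 for Tsc22d3 and -1.74 for Cdkn1a. Among acute phase genes it was -9.71 for Saa1, -11.13 for Saa2, -6.69 for Lcn2, -2.25 for Hp, -3.06 for Orm1 and -2.44 for Fgb.

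For Adh5 (-1.16) and Slc39a3 (-0.59) every KO HFD liver lay below every KO LFD liver and every WT HFD liver above every WT LFD liver. The difference between the diet effects did not pass for either gene (limma adjusted p = 0.063 and 0.11). Singly, the first separation held for 27.7% of genes tested and the second for 15.2%. The share of genes with both was not computed. The nuclear RNAs Malat1 and Neat1 summed to 99.49 to 322.1 TPM in KO HFD livers, 14.48 to 30.97 TPM in WT HFD livers, 35.11 to 69.3 TPM in KO LFD livers and 23.84 to 43.6 TPM in WT LFD livers. KO LFD mouse 5 held the highest of the 12 values for 7 of 10 acute phase genes. The part of either in these differences was not tested.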

How the results depend on the processing

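Over 23 alternative settings, 35 results of the 5 members gave 790 values, of which 704 kept direction and call, 54 turned direction (15 results), 19 gained a call and 13 lost it. A fit of only 2 groups gives no value for the averaged contrasts and the interaction, which have 22 settings. Settings were chosen with earlier results known. Causes of the shifts were not tested. Depth is unknown, so precision rests on 3 livers a group.

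Median log2 changes over all genes were -0.25 in KO HFD against WT HFD and -0.22 in KO HFD against KO LFD, against -0.06 and 0 under median-ratio scaling. Genes called higher and lower were 1347 and 3088 in KO HFD against WT HFD, against 2172 and 2638 under median-ratio scaling and 2117 and 2668 under quantile normalization. Between KO HFD and KO LFD they were 806 and 2040, against 1620 and 1664, and 1536 and 1974. In the interaction they were 304 and 853, against 781 and 880, and 765 and 894. In HFD against LFD they were 315 and 454, against 785 and 725 (1510) and 691 and 912 (1603). In KO LFD against WT LFD they were 11 and 8, against 23 and 29 (52) and 24 and 21 (45), and in WT HFD against WT LFD 30 and 7, against 33 and 19, and 28 and 15. Members called became 2 in KO HFD against WT HFD under a pseudocount of 0.1, both scalings, rescaling without mitochondrial genes, a fit of only the 2 groups and array weights. They became 2 in KO against WT and 1 in HFD against LFD under both scalings and array weights, and 1 in the interaction under quantile normalization and array weights. They became 0 in KO against WT with no filter, and 0 in KO HFD against KO LFD with only the 2 groups fitted.

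Genes called in KO LFD against WT LFD (19) were 8 with a pseudocount of 0.1, 12 with no filter, 0 with only the 2 groups (limma; 1400 at an unadjusted p under 0.05) and 71 with array weights. In WT HFD against WT LFD (37) they were 8 with no filter, 19 with a filter at 5 TPM, 214 with only the 2 groups and 2598 with array weights. Between KO HFD and KO LFD (2846) they were 727 with only the 2 groups. With no filter they were 182 in the interaction and 329 in HFD against LFD. With array weights they were 7733 in KO HFD against WT HFD, 4893 in the interaction, 4768 in KO against WT and 2344 in HFD against LFD.

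Signs turned only for changes that did not pass, in either setting (adjusted p under the alternative of at least 0.381). Slc39a14 was 0.12 and 0.18 in KO HFD against WT HFD under median-ratio scaling and quantile normalization, 0.18 and 0.15 in KO HFD against KO LFD (0.0924 with array weights, 0.0216 without mitochondrial genes), and 0.0255 and 0.0442 in the interaction. In WT HFD against WT LFD, Mt1 was -0.0019 with a pseudocount of 5, -0.0638 under median-ratio scaling, -0.000504 without mitochondrial genes and -0.90 with array weights, and Slc30a1 was -0.0629 under median-ratio scaling, -0.116 under quantile normalization and -0.00985 without mitochondrial genes. Slc30a10 was 0.0289 in KO HFD against KO LFD under median-ratio scaling.

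The mouse numbers shared between groups were not taken to pair the animals. Same-numbered livers deviated from their group means with correlations of -0.255 to 0.102. With the replicate block, 11 genes were called in KO LFD against WT LFD and 0 members in KO against WT, where Slc30a10 had an adjusted p of 0.0571, and Mt1 (-0.13) and Slc30a1 (-0.0175) turned sign in WT HFD against WT LFD. No other call of a member changed under the block.

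With each library left out in turn, genes called ran from 2327 (without WT HFD mouse 1) to 4652 in KO HFD against WT HFD, 4 to 64 in KO LFD against WT LFD, 1 to 97 in WT HFD against WT LFD, 1607 to 2947 in KO HFD against KO LFD, 24 (without WT HFD mouse 1) to 2047 (without KO LFD mouse 4) in the interaction, 1428 to 2687 in KO against WT and 262 to 938 in HFD against LFD. Members called ran from 1 to 2 in KO HFD against WT HFD and against KO LFD, and from 0 to 1 in KO against WT and in the interaction. Log2 changes of Mt1 ran from -0.64 to 2.66 in KO LFD against WT LFD, -1.19 to 0.71 in WT HFD against WT LFD and -0.73 to 0.91 in KO against WT. Those of Mt2 ran from -0.50 to 2.996 in KO LFD against WT LFD, -1.41 to 0.88 in WT HFD against WT LFD and -1.21 to 0.54 in KO against WT. Slc30a1 ran from -0.11 to 0.14 in WT HFD against WT LFD. Slc30a10 ran from -0.70 to 0.20 in KO HFD against KO LFD and -0.28 to 0.63 in the interaction. Slc39a14 ran from -0.36 to 0.10 in KO HFD against WT HFD, -0.31 to 0.50 in KO LFD against WT LFD, -0.39 to 0.42 in KO HFD against KO LFD, -0.63 to 0.19 in the interaction, -0.22 to 0.18 in KO against WT and -0.074 to 0.33 in HFD against LFD. The log2 Mt2/Mt1 ratio ran from -0.82 to -0.62 in HFD against LFD and -0.22 to 0.17 in WT HFD against WT LFD.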

Other observations

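Of 12 genes of copper handling, 11 were tested and 4 were called lower in KO HFD against WT HFD by limma, none higher, with a median log2 change of -0.40. Over all genes tested 25.8% were called lower and 11.2% higher, with a median of -0.25. Among the 7337 genes that reached 5 TPM in 3 libraries, the median was -0.395, with 2494 called lower and 760 higher. The copper median was thus close to that of these more abundant genes. The 4 called lower were the copper importer Slc31a1 (-1.20, adjusted p = 0.00928), the copper pump Atp7b (-0.98, adjusted p = 0.0144), Cp (-1.27, adjusted p = 0.00785) and Steap3 (-1.44, adjusted p = 0.00189). Cp was at 134.7, 186.4 and 229.99 TPM in KO HFD mice 1, 5 and 6, against 424.02, 454.94 and 426.73 TPM in WT HFD mice 1, 2 and 6. In KO HFD against KO LFD, Cox17, a copper chaperone of cytochrome oxidase assembly, was called higher (0.67, adjusted p = 0.0324), while Slc31a1, Cp and Steap3 were called lower, as 17.0% of all genes were. Cox17 was also called higher in KO HFD against WT HFD under median-ratio scaling, quantile normalization and rescaling without mitochondrial genes. Without KO LFD mouse 5, no copper gene was called higher and 2 were called lower in KO HFD against KO LFD.

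Of 10 zinc enzymes of liver, 5 were called lower in KO HFD against WT HFD and none higher, with a median of -0.93, against the same 25.8% lower and median of -0.25 over all genes. Among genes that reached 5 TPM in 3 libraries the median was -0.395. The 5 called lower were Adh5 (-1.11), a glutathione-dependent formaldehyde dehydrogenase, the carbonic anhydrases Car2 (-0.94) and Car5a (-1.31), Sord (-0.93), the sorbitol dehydrogenase, and Dpys (-2.03, adjusted p = 0.00123). Alad, an enzyme of heme synthesis, was called higher under these 3 rescalings and without KO HFD mouse 1, and Car5a was not called under median-ratio scaling, under quantile normalization or without that mouse. Between KO LFD and WT LFD no gene of either list was called, where 0.159% of all genes tested were. Of 10 genes for the glucocorticoid receptor and its targets, 4 were called lower in KO HFD against WT HFD, Nr3c1 (-0.77), Tsc22d3 (-0.84), Tat (-1.66) and Klf9 (-1.16), where 25.8% of all genes were, and without KO HFD mouse 1 only Tat and Klf9, 2 of the 10, were called. Of the 10 interleukin-6 and acute phase genes only Fgb was called in that contrast, lower by the same test (-1.56, adjusted p = 0.00851).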
